A study of Homo sapiens with 6 samples.

Results

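The mitochondrial ribosomal protein genes were taken as every gene symbol of the deposited count table made of MRPL or MRPS, a number and at most 1 closing letter. This rule used names only and found 78 genes among the 19876 symbols of the table. By symbol, 49 belong to the large subunit (MRPL) and 29 to the small subunit (MRPS). The cells were the established human line A549, derived from a lung adenocarcinoma and labelled wild type, grown in DMEM with fetal bovine serum. Of 6 RNA sequencing libraries, 3 came from cells given PBS as the negative control and 3 from cells given rhTR11B, which the labels do not spell out. Read as TNFRSF11B, the name would stand for osteoprotegerin, a soluble decoy that binds ligands of the TNF family; the labels do not say so. The labels give no dose and no time. They call the libraries biological replicates without saying whether separate cultures were used, so each p-value speaks for the variation among these 6 libraries, which may be technical.

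Mitochondria keep a small genome and translate its messenger RNAs on their own ribosome, whose RNA comes from that genome and whose proteins all come from nuclear genes. These proteins are made in the cytosol and imported. The large subunit forms peptide bonds and the small subunit reads the message, and the products are core subunits of the respiratory chain and ATP synthase. Many of the proteins descend from bacterial ribosomal proteins, while others are found only in mitochondrial ribosomes. Some symbols do not match the place of the protein: MRPS18A and MRPS30 sit in the large subunit, and MRPS36 is now counted to the 2-oxoglutarate dehydrogenase complex.

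The libraries held 36315751 to 38148838 counts. Of 8 markers listed for A549 and epithelial cells, 6 were in the table, and AKR1B10 and ALDH1A1 were absent. The keratins KRT7, KRT8 and KRT18 and the detoxification enzyme NQO1 were well detected. The epithelial surface markers CDH1 and EPCAM had at most 1 and 10 counts in any library. Of the 3 alveolar type II markers SFTPB, SFTPC and NKX2-1, 0 were in the table. Of 7 markers of blood, endothelial cells and fibroblasts, 5 were in the table, and 2 had at least 10 counts in every library. The summed level of the 5 was 1.98 to 2.67 FPKM with PBS and 2.66 to 3.49 FPKM with rhTR11B. For the epithelial list it was 1142 to 1201 FPKM with PBS and 1079 to 1149 FPKM with rhTR11B. FPKM is the count divided by gene length and library total. The library of rhTR11B replicate 3 stood apart from the other rhTR11B libraries. A chi-square of counts, divided by its degrees of freedom (near 1 for sampling noise alone), was 23.1 and 26.1 against replicates 1 and 2, 5.33 between those replicates, and 5.82 to 9.56 between PBS libraries. The main counts and medians below are given with and without it.

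To show what lies around the starts of the genes with the smallest p-values, promoter windows of RefSeq (GRCh38.p14; 250 bases before to 50 after the gene start) were searched on both strands for short motifs of factors known to bind promoters of genes for mitochondrial proteins. The motif of ETS factors (CCGGAAG) stood in 29 of 69 member windows (42%), against 19.7% of the 10719 windows of tested genes and 10.7% of all 27305 windows. The core motif of YY1 (ATGGCGG) stood in 24 of 69 (34.8%), against 10.6% of tested genes and 5.72% of all windows. The same letters can open a coding sequence, since ATG and GCG encode methionine and alanine. At least 1 of these motifs was found in 46 windows, and both in 7. The palindromic motif of NRF1 stood in 11.6% of member windows and 12.2% of those of tested genes. Large and small subunit windows held the ETS motif in 40.5% and 44.4% and the YY1 motif in 33.3% and 37.0%. Below are the 100 bases before the start of MRPL18 (chr6:159789712-159789811, plus strand), which hold none of the 3 motifs, and of MRPL27 (chr17:50373185-50373284, minus strand), with ETS motifs at -52 and -8. For MRPS15 (chr1:36464340-36464369, minus strand) and MRPL9 (chr1:151763462-151763491, minus strand), 30 bases around a YY1 motif are shown, which begins at base 28 and base 18 of the gene. Capitals mark the motifs.
MRPL18: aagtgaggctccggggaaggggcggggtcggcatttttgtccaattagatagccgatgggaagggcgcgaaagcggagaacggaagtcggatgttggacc
MRPL27: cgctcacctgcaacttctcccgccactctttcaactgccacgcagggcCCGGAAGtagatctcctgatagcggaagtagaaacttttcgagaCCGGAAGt
MRPS15: tcctgggccagcATGGCGGcgcccatgtaa
MRPL9: gtgcctgtgaacATGGCGGcgcccgttgtc

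Members with the YY1 motif had a median log2 fold change of -0.17 (23 tested members) and those without it -0.13 (45 members). With and without the ETS motif the medians were -0.14 (29 members) and -0.13 (39 members). For the GC box (GGGCGG), held by 60.9% of member windows and 70.6% of those of tested genes, the order was the opposite, with -0.12 for members with it (41) and -0.16 for those without (27). The E-box (CACGTG) stood in 8.7% of member windows and 9.99% of those of tested genes, and the TATA motif (TATAAA) in 2.9% and 5.42%. These are descriptions of letters in a window, and no binding was measured.

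The genes span 21 chromosomes, with 8 members each on chromosomes 1, 2 and 17. RefSeq held 77 of the 78 symbols. In 22 members the locus overlaps another gene of the table, among the members described here MRPL9 (OAZ3), MRPL37 (SSBP3), MRPL43 (SEMA4G), MRPL47 (ACTL6A), MRPS6 (SLC5A3), MRPS7 (GGA3 and MIF4GD), MRPS9 (MRPS9-AS1 and MRPS9-AS2), MRPS18C (ABRAXAS1), MRPS25 (NR2C2) and MRPS34 (EME2). The strand setting of the counting is not given in the sources used here, so reads shared by such pairs cannot be told apart.

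All members except MRPS24 had 115 to 5775 counts per library. For MRPS24, the homologue of bacterial S3, the PBS libraries held 0, 0 and 1 counts, those of rhTR11B 2, 1 and 3, and the gene did not reach the minimum for the test. RefSeq places a readthrough gene, URGCP-MRPS24, over it, and whether the counting left shared reads out was not tested, so these counts may not show how much the gene is expressed. The readthrough gene TPD52-MRPS28 likewise overlaps MRPS28, the tested member with the lowest counts (115 to 138 per library), and its values carry the same limit.

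In PBS cells the 49 large subunit genes had a median of 32.4 FPKM and the 28 tested small subunit genes one of 28.5 FPKM. The middle 50% lay between 14.6 and 49.4 FPKM in the large and between 14.1 and 39.7 FPKM in the small subunit. The highest large subunit genes were MRPL51, a protein specific to mitochondrial ribosomes, at 95.5 ± 3.22 FPKM (SD, n = 3), MRPL12, the stalk protein that contacts translation factors, at 90.5 ± 4.84 FPKM, and MRPL37, another mitochondria-specific protein, at 80.7 ± 1.98 FPKM. The ranges of 1 SD around the means of MRPL51 and MRPL12 overlapped, and their difference was not tested. The highest small subunit genes were MRPS15, a homologue of the bacterial rRNA-binding protein S15, at 90.01 ± 1.82 FPKM, MRPS7, a homologue of bacterial S7 in the head of the subunit, at 72.3 ± 1.42 FPKM, and the mitochondria-specific MRPS34 at 71.6 ± 2.54 FPKM. The last 2 of these did not differ beyond their spread.

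At the low end were MRPL42 at 3.52 ± 0.356 FPKM, MRPL17 at 8.55 ± 0.399 FPKM and MRPL43 at 9.52 ± 0.413 FPKM in the large subunit. In the small subunit MRPS28 stood at 3.88 ± 0.182 FPKM and MRPS11 at 4.76 ± 0.189 FPKM. The FPKM scale divides MRPL42 by a length of 15560 bases, against a median of 1550 bases for the tested members, and its 54.5 ± 5.14 CPM were above the members' median of 44.1 CPM. CPM is the count relative to the scaled library size, without division by gene length. The highest level was 27.1 times the lowest in the large subunit and 23.2 times in the small subunit.

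With rhTR11B the transcripts of mitochondrial ribosomal proteins stood slightly lower across both subunits, and 2 of them fell by the test. The log2 fold change, rhTR11B over PBS, was negative in 73 of the 77 tested members, against 50% of all 13567 tested genes. Their median was -0.14, or 0.907 of the PBS level, against 0.00 for all tested genes. The members ran from -0.30 for MRPL18 to 0.12 for MRPS21, and none stood lower by more than 20%. At an adjusted p under 0.05 with edgeR's quasi-likelihood test, 2 members fell, against 0.678% of all tested genes, and 0 rose, against 2.92%. At an unadjusted p under 0.05, 33 stood lower (10.3% of all tested genes) and 0 higher (13.8%). For 42 members every rhTR11B library lay below every PBS library (14% of all tested genes), and for 1 tested member, MRPS21, every rhTR11B library lay above (15.1%). At an adjusted p under 0.1, 11 members stood lower (4.1% of all tested genes). The members share libraries and vary together, so these counts are not independent of each other. In bulk RNA, fewer cells of a kind and less RNA per cell cannot be told apart.

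**Figure D1:**
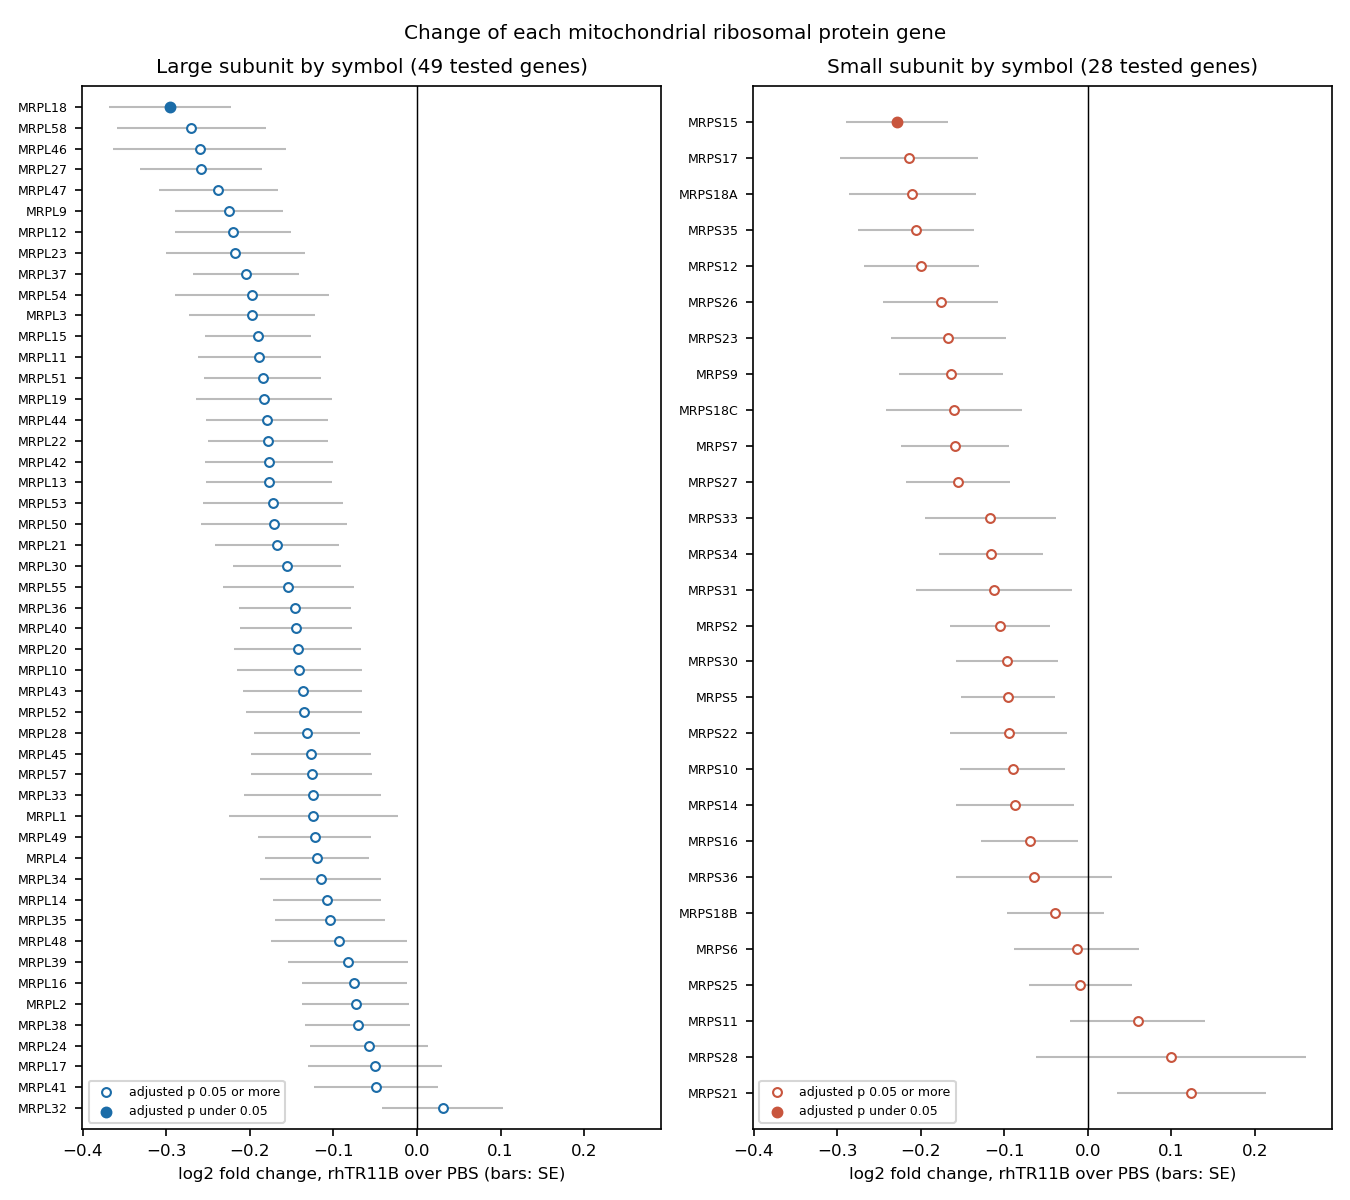
Log2 fold change of each tested member, rhTR11B over PBS, with its standard error as a bar, for the large subunit (left, 49 genes) and the small subunit (right, 28 genes); filled points have an adjusted p under 0.05. All but MRPL32 on the left and MRPS11, MRPS28 and MRPS21 on the right lie below 0, and only MRPL18 and MRPS15 are filled.

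MRPL18, the homologue of bacterial L18, a protein that binds 5S ribosomal RNA in bacteria, was the large subunit gene that fell. Its level was 70.8, 65.2 and 70.4 CPM in PBS replicates 1 to 3 and 62.3, 55.1 and 50.7 CPM in rhTR11B replicates 1 to 3. All rhTR11B libraries lay below the lowest PBS library. The mean was 68.8 ± 3.12 CPM with PBS and 56.0 ± 5.90 CPM with rhTR11B (SD, n = 3 per group; log2 fold change -0.30, SE 0.07, edgeR adjusted p = 0.0358).

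MRPS15 was the small subunit gene that fell. It had 83.4, 86.1 and 86.4 CPM with PBS and 76.7, 73.4 and 68.3 CPM with rhTR11B, again without overlap. The mean was 85.3 ± 1.67 CPM with PBS and 72.8 ± 4.24 CPM with rhTR11B (fitted log2 fold change -0.23, SE 0.06, edgeR adjusted p = 0.0472). Both calls lie close to the threshold. With 1 library left out, MRPL18 passed in 2 of 6 fits (without rhTR11B replicate 1 and without rhTR11B replicate 3, adjusted p = 0.00563 and 0.0460) and MRPS15 in 1 (without rhTR11B replicate 1, adjusted p = 0.0244); the other adjusted p reached 0.182 without PBS replicate 3 for MRPL18 and 0.189 without PBS replicate 2 for MRPS15. Offsets for gene length gave adjusted p = 0.0554 for MRPL18 and 0.0966 for MRPS15.

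The other large subunit genes with the smallest p-values did not pass. MRPL27, whose bacterial homologue reaches towards the peptide-bond centre, had 34.5, 30.9 and 35.0 CPM with PBS and 27.9, 28.7 and 27.4 CPM with rhTR11B (-0.26, SE 0.07, edgeR adjusted p = 0.0539). The rhTR11B libraries lay close together and below all PBS libraries. MRPL9, a homologue of bacterial L9, had 64.1, 63.8 and 63.1 CPM with PBS and 58.7, 53.8 and 51.0 CPM with rhTR11B (-0.22, edgeR adjusted p = 0.0574). MRPL47, the counterpart of bacterial L29 beside the exit tunnel, had 32.8, 34.4 and 33.8 CPM with PBS and 28.8, 30.1 and 26.7 CPM with rhTR11B (-0.24, edgeR adjusted p = 0.0630). In both genes the groups were apart by more than the spread within PBS.

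MRPL37, the member with the highest counts, had 144.29, 150.02 and 150.89 CPM with PBS and 138.85, 129.64 and 117.89 CPM with rhTR11B (-0.20, edgeR adjusted p = 0.0705). MRPL12, which also binds the mitochondrial RNA polymerase, had 86.6, 89.1 and 96.8 CPM with PBS and 83.0, 80.8 and 70.0 CPM with rhTR11B (-0.22, edgeR adjusted p = 0.0733). In both, rhTR11B replicate 3 was the lowest library by a clear step. MRPL51 had 82.7, 87.8 and 85.5 CPM with PBS and 82.05, 76.0 and 67.1 CPM with rhTR11B, where replicate 1 was nearly level with the lowest PBS library (-0.18, edgeR adjusted p = 0.116).

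Among small subunit genes, the mitochondria-specific MRPS35 had 59.0, 63.7 and 56.2 CPM with PBS and 55.4, 51.3 and 48.5 CPM with rhTR11B (-0.21, edgeR adjusted p = 0.0847). MRPS12, whose bacterial homologue lies at the decoding centre, had 36.9, 40.0 and 38.6 CPM with PBS and 35.1, 33.1 and 32.4 CPM with rhTR11B (-0.20, edgeR adjusted p = 0.0895). Neither gene overlapped between the groups, and neither passed. MRPS9 and MRPS17, homologues of bacterial S9 and S17, stood at -0.16 (edgeR adjusted p = 0.121) and -0.21 (edgeR adjusted p = 0.122). Of the highly expressed genes of this subunit, MRPS7 stood at -0.16 (adjusted p = 0.140) and MRPS34 at -0.12 (adjusted p = 0.264).

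A few members did not share the lower level. MRPS21, a homologue of bacterial S21, had 12.19, 12.03 and 11.60 CPM with PBS and 13.23, 12.76 and 13.05 CPM with rhTR11B, and its rhTR11B libraries were the higher ones throughout (log2 fold change 0.12, SE 0.09, edgeR adjusted p = 0.411). MRPL32, which is matured by a mitochondrial inner membrane protease before it joins the ribosome, had 43.6, 41.3 and 41.8 CPM with PBS and 42.8, 39.4 and 47.2 CPM with rhTR11B (0.03, edgeR adjusted p = 0.833). It was the large subunit gene with a positive value, and in rhTR11B replicate 3, where most members were lowest, it was highest. MRPS11 stood at 0.06 (adjusted p = 0.694) and MRPS28 at 0.10 (SE 0.16, adjusted p = 0.752), both with overlapping libraries. The sign of MRPL32 turned to -0.04 without rhTR11B replicate 3, and that of MRPS11 to -0.01 without rhTR11B replicate 1. MRPS6 at -0.01 (adjusted p = 0.935) and MRPS25 at -0.01 (adjusted p = 0.947), chosen after their values were seen, were nearly level between the groups.

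**Figure D2:**
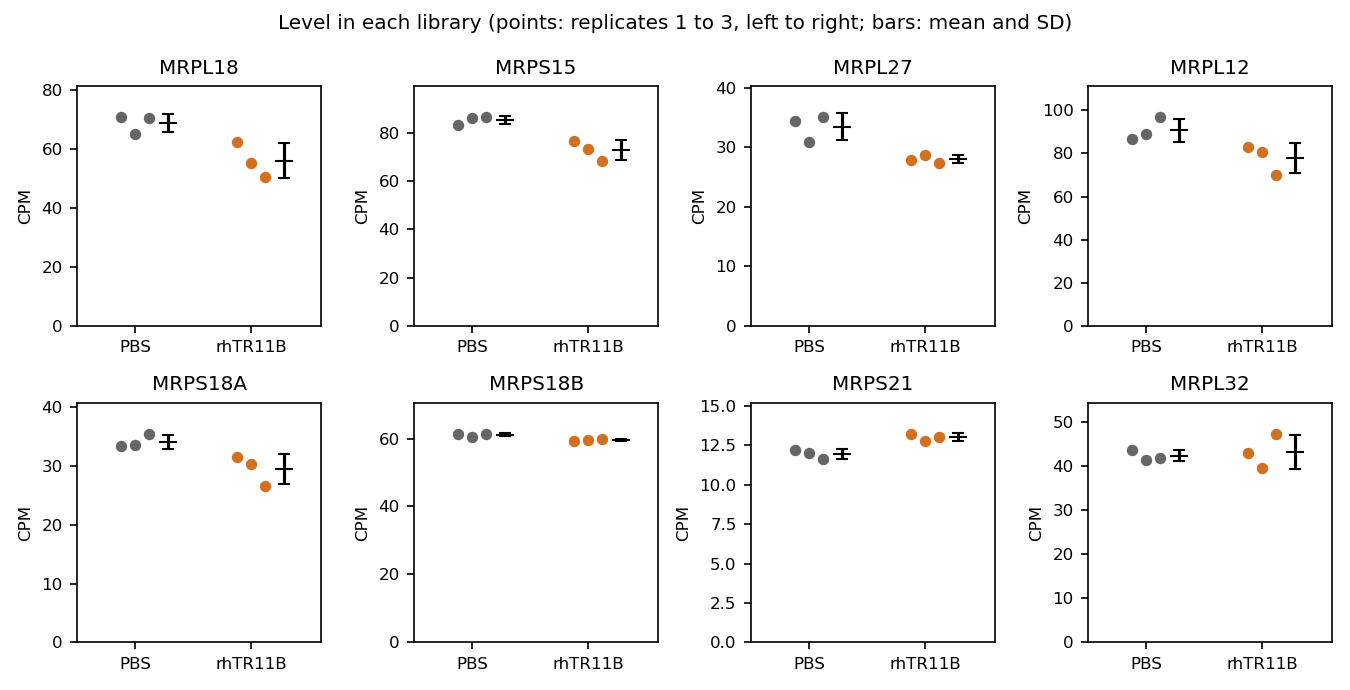
CPM of 8 members in each library (points, replicates 1 to 3 from left to right) with mean and SD beside them; the vertical axes start at 0. MRPL18, MRPS15, MRPL27, MRPL12 and MRPS18A are lower in every rhTR11B library by small steps, MRPS18B differs by 2.65% between means, MRPS21 is higher in every rhTR11B library and MRPL32 overlaps.

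The MRPS18 family holds 3 paralogs of bacterial S18 that occupy different places: MRPS18A in the large subunit, MRPS18B and MRPS18C in the small subunit. MRPS18A had 33.3, 33.5 and 35.4 CPM with PBS and 31.5, 30.3 and 26.5 CPM with rhTR11B (-0.21, SE 0.08, edgeR adjusted p = 0.103). MRPS18C had 21.0, 22.3 and 20.6 CPM with PBS and 20.66, 18.47 and 18.02 CPM with rhTR11B (-0.16, SE 0.08, edgeR adjusted p = 0.235). MRPS18B had 61.4, 60.5 and 61.4 CPM with PBS and 59.1, 59.5 and 59.8 CPM with rhTR11B (-0.04, SE 0.06, edgeR adjusted p = 0.730). MRPS18B libraries did not overlap although the means differed by 2.65% only, and MRPS18C libraries overlapped. The difference between the paralogs was not tested. MRPS30 stood at -0.10 (adjusted p = 0.348) and MRPS36 at -0.06 (adjusted p = 0.718), which became 0.01 without rhTR11B replicate 3.

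The median of the large subunit genes was below that of the small subunit genes by 0.037 on the log2 scale, a difference that was not tested and was widest in 1 library. Large minus small was -0.037 with all libraries, -0.021 without rhTR11B replicate 3 and -0.060 without rhTR11B replicate 1. Relative to PBS, the large and small medians were nearly level in rhTR11B replicate 1 (-0.06 and -0.07) and replicate 2 (-0.12 and -0.12), and apart in replicate 3 (-0.26 and -0.18). Their median log2 fold change was -0.15, with 48 of 49 negative and 28 of 49 without overlap below PBS. For the small subunit the median was -0.11, with 25 of 28 negative and 14 of 28 without overlap below PBS. Among all tested genes, 50% were negative and 14% lay below PBS without overlap. Summed over the large subunit, the level was 2403, 2467 and 2501 CPM with PBS and 2330, 2238 and 2062 CPM with rhTR11B. Summed over the small subunit it was 1423, 1464 and 1454 CPM with PBS and 1383, 1341 and 1285 CPM with rhTR11B. Both sums were lower in every rhTR11B library than in any PBS library. The ratio of large to small sums was 1.689, 1.685 and 1.720 with PBS and 1.685, 1.669 and 1.604 with rhTR11B. PBS replicate 2 and rhTR11B replicate 1 had nearly the same ratio, and the lowest was that of rhTR11B replicate 3. With MRPS18A and MRPS30 counted to the large subunit and MRPS36 left out, the medians were -0.15 and -0.11.

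**Figure D3:**
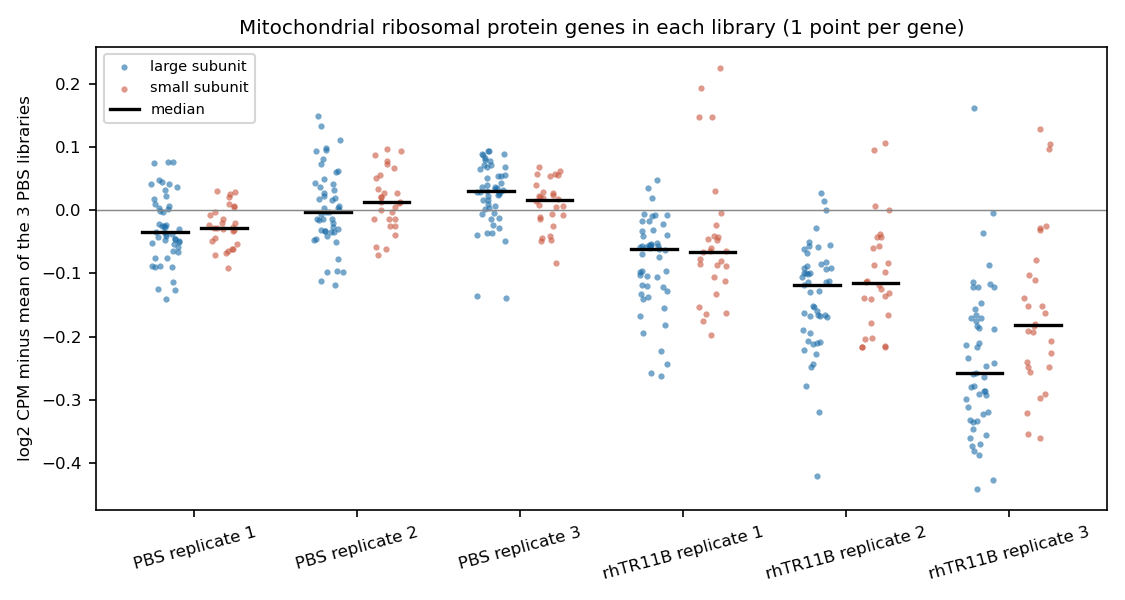
Log2 CPM of each tested member minus its mean over the PBS libraries, by library, for the large subunit (49 genes) and the small subunit (28 genes); black lines are medians. The medians lie from -0.03 to 0.03 in the PBS libraries and at -0.06, -0.12 and -0.26 (large) and -0.07, -0.12 and -0.18 (small) in rhTR11B replicates 1 to 3.

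The size of the difference was uneven among the rhTR11B libraries. The median over all tested members, relative to the PBS mean, was -0.06, -0.12 and -0.22 in rhTR11B replicates 1, 2 and 3 and -0.03, 0.00 and 0.02 in PBS replicates 1, 2 and 3. The library of rhTR11B replicate 3 was the lowest of the 6 for 59 of 77 members. Without it the median over the members was -0.10, 71 of 77 were negative, 1 fell (MRPL18; 0.626% of all tested genes fell), and 44 lay below all PBS libraries (17.2% of all tested genes in the same libraries). At an unadjusted p under 0.05 with edgeR, 16 members then stood lower, against 33 with all libraries. Without rhTR11B replicate 1 the median was -0.17 and 12 members fell, while the share of all tested genes that fell was 3.1%, against 0.678% with all libraries. Without any 1 PBS library or without rhTR11B replicate 2, edgeR called 0 members. In those 4 fits 0.0218% to 0.342% of all tested genes fell at an adjusted p under 0.05. At an unadjusted p under 0.05, 19 to 27 members stood lower in them. The share of all tested genes at the unadjusted threshold was 10.3% with all libraries and was not counted with 1 library left out. Library by library, the 13 mitochondrially encoded genes took 6.63% to 7.71% of the counts with PBS and 8.75%, 7.88% and 10.4% in rhTR11B replicates 1 to 3. Leaving those genes out before scaling gave a median of -0.14 over the members, and MRPS15 then had adjusted p = 0.0511.

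Members of bacterial descent and members specific to mitochondria had like values. The 44 tested homologues of bacterial proteins had a median of -0.14, with 40 negative and 2 that fell. The 29 mitochondria-specific members had a median of -0.14, with 29 negative and 0 that fell at an adjusted p under 0.05 with edgeR, 12 of them at an unadjusted p under 0.05. The smallest adjusted p among the latter was the 0.0705 of MRPL37. Among all tested genes 0.678% fell, and 10.3% stood lower at an unadjusted p under 0.05. The class of the other members was not assigned. These include MRPS18A (-0.21) and MRPS18B (-0.04), although they are related to bacterial S18, while MRPS18C was counted to the bacterial homologues.

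Across the 77 members the log2 fold change had little relation to the level or length of the gene. Spearman's rho was -0.14 with the PBS level in FPKM and 0.11 with the gene length, and Pearson's r was -0.25 with log2 FPKM and 0.07 with log2 length. The genes share the same 6 libraries, and the PBS level enters both measures. As a group the members are short, with a median length of 1550 bases against 3981 for all tested genes. With per-library offsets for gene length, the median over the members was -0.11 against -0.01 for all genes, and 71 of 77 were negative.

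**Figure D4:**
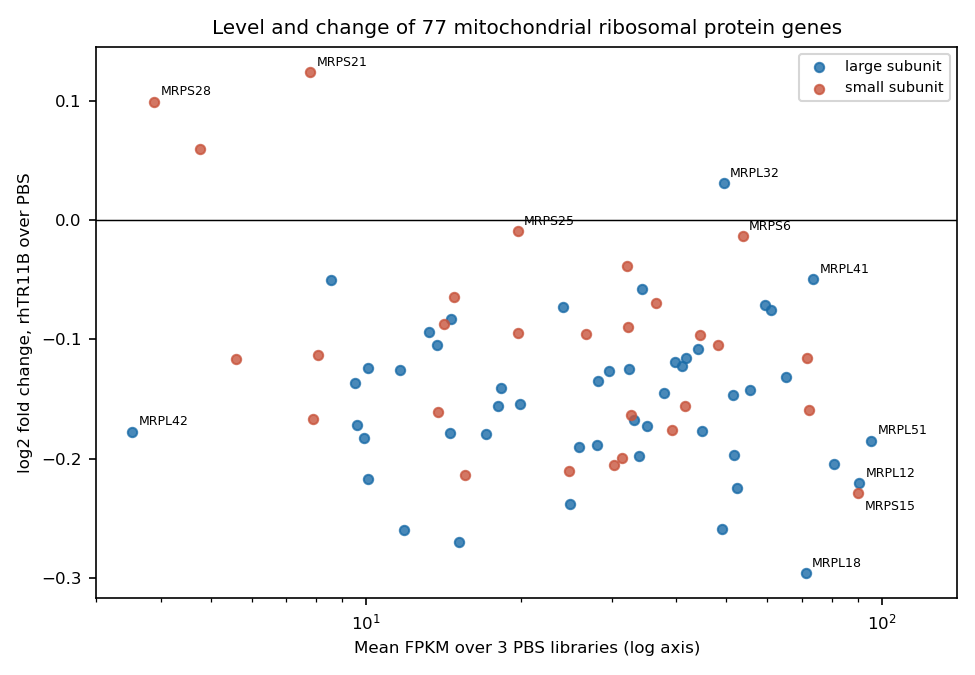
Log2 fold change, rhTR11B over PBS, against the mean FPKM over the PBS libraries (log axis) for the 77 tested members, coloured by subunit. The middle 50% of the points lie between -0.18 and -0.09; 3 of the 4 members above 0 (MRPS21, MRPS28 and MRPS11) are among the lowly expressed genes.

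The ribosome's remaining proteins carry other names. Of 5 such genes tested, 4 were negative and 0 passed with edgeR (2 at an unadjusted p under 0.05), with a median of -0.11. Among all tested genes 0.678% fell, and 10.3% stood lower at an unadjusted p under 0.05. GADD45GIP1, a large subunit protein, had 38.0, 39.5 and 44.4 CPM with PBS and 34.8, 36.0 and 30.6 CPM with rhTR11B (fitted log2 fold change -0.26, edgeR adjusted p = 0.0619). AURKAIP1, a small subunit protein, went from 107 ± 1.54 to 95.2 ± 6.76 CPM (edgeR adjusted p = 0.101), with no overlap.

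Genes that build and serve the ribosome had smaller medians. For comparison, 50% of all tested genes were negative and 0.678% fell. Of 23 assembly factors, 17 were negative with a median of -0.05, and 1 fell. It was MRM2, a methyltransferase of the large ribosomal RNA, with 31.2, 29.5 and 30.7 CPM with PBS and 25.4, 25.8 and 25.3 CPM with rhTR11B (-0.26, SE 0.07, edgeR adjusted p = 0.0481). Its rhTR11B libraries agreed closely and lay below all PBS libraries. Of 19 genes of mitochondrial transcription, replication and RNA processing, 14 were negative with a median of -0.06, and 1 fell. It was SLIRP, the partner of LRPPRC in keeping mitochondrial messenger RNAs stable, with 40.7, 44.0 and 43.7 CPM with PBS and 38.9, 33.7 and 34.3 CPM with rhTR11B (-0.26, SE 0.07, edgeR adjusted p = 0.0493). Over these lists 0 genes fell with edgeR when any 1 library other than rhTR11B replicate 1 was left out, and 0 with offsets for gene length. In those fits 0.0218% to 0.626% of all tested genes fell with 1 library left out, and 0.575% with length offsets.

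Of 14 translation factors and related genes, 10 were negative with a median of -0.05, and 0 passed with edgeR (1 at an unadjusted p under 0.05). Nearest were TACO1, an activator of COX1 translation (-0.20, adjusted p = 0.148), and TSFM, the exchange factor of the elongation factor TUFM (-0.13, adjusted p = 0.207). Of 20 mitochondrial tRNA synthetase and amidotransferase genes, 15 were negative with a median of -0.03, and 0 passed with edgeR (2 at an unadjusted p under 0.05). Nearest were the glutamyl-tRNA synthetase EARS2 (-0.16, adjusted p = 0.167) and the amidotransferase subunit GATC (-0.15, adjusted p = 0.172). The share of all tested genes that stood lower at an unadjusted p under 0.05 was 10.3%.

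The mitochondrially encoded genes, whose messages this ribosome translates, had the opposite sign. All 13 had positive log2 fold changes, with a median of 0.33, and 3 rose, the oxidase subunit COX2 (0.37, edgeR adjusted p = 0.0400), CYTB of complex III (0.37, edgeR adjusted p = 0.0472) and the ATP synthase subunit ATP6 (0.36, edgeR adjusted p = 0.0478). The genes of cytosolic ribosomal proteins had the same sign as the mitochondrial ones, with a median of -0.21 over 83 genes, 82 negative and 14 that fell. In rhTR11B replicates 1 to 3 their median relative to PBS was -0.14, -0.16 and -0.36. Without rhTR11B replicate 3 the cytosolic group had a median of -0.15 with 19 that fell, and the mitochondrially encoded genes one of 0.22 with 9 that rose and 1 negative. Leaving out 1 PBS library left 0 to 1 calls in either group, and leaving out rhTR11B replicate 1 gave 59 and 11. Leaving out rhTR11B replicate 2 gave 9 cytosolic genes that fell and 10 mitochondrially encoded genes that rose. Calls over all tested genes moved as well. With all libraries 0.678% fell and 2.92% rose. Without rhTR11B replicate 3, 0.626% fell and 295 of 13749 genes rose. Without rhTR11B replicate 1, 3.1% fell and 903 of 13761 rose. When rhTR11B replicate 2 was left out, 0.342% fell and 385 of 13730 rose. Without 1 PBS library, 0.0218% to 0.196% fell and 9 to 255 genes rose. The differences between these groups and the mitochondrial ribosomal proteins were not tested.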

How the data were processed

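RNA sequencing of A549 cells was deposited as read counts per gene symbol and as FPKM, both made by the authors. The submitters' processing notes list the build GRCh38 and the tools DESeq2, R 3.2.0, HTSeq, HISAT and fastp. Tool roles, other versions, annotation and strand setting: not given in the sources used here. The deposited FPKM equal count divided by gene length and library total in 100% of cases (relative tolerance 0.001), and gene lengths were taken from that ratio.

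Counts were fitted with edgeR 4.0.16 in R 4.3.3: filterByExpr (minimum count 10), TMM scaling, group as the only term, the quasi-likelihood test, and Benjamini-Hochberg adjustment over all 13567 tested genes. A call is an adjusted p under 0.05. The standard error is the log2 fold change divided by the square root of F. CPM use the TMM-scaled library sizes. At 36315751 to 38148838 counts per library, variation between libraries limits the precision. The common biological coefficient of variation was 0.0656. The scripts were tested on simulated data with planted changes larger than those of any member, so that test does not cover changes of the size reported here. No pair of libraries of the same group agreed within sampling noise.

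Genes were named by a rule: called members, those with the smallest p in each subunit and direction, the highest and lowest by FPKM, untested members, the MRPS18 paralogs, MRPS30, MRPS36 and MRPL12, and in other lists the called genes or the 2 with the smallest p. Members and lists were chosen with earlier results of these data known. Alternatives were other scaling, low-count filters, thresholds, a replicate block, the Wald test of DESeq2 1.42.0, limma 3.58.1 on log2 FPKM (pseudocount 1 or 0.1, genes averaging 1 FPKM or more), length offsets (lowess), subunits by structure, leaving out mitochondrially encoded genes, and leaving out each library.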

Additional observations from a re-analysis of the deposited data

How the results depend on the processing

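Of the members, 2 fell in the fit reported. The number was 9 with no low-count filter, 7 with the Wald test of DESeq2, 6 with the replicate block and 11 at an adjusted p under 0.1. Calls over all genes moved too: 0.678% fell in the fit reported and 2.43%, 1.81%, 1.86% and 4.1% in these. The number of members was 1 without the mitochondrially encoded genes and 0 with a mean of at least 5 CPM, with limma on FPKM at either pseudocount and with length offsets. In the fits with 0 members, 0.251%, 0.194%, 0.203% and 0.575% of all genes fell at an adjusted p under 0.05. At an unadjusted p under 0.05, 27, 40, 40 and 24 members stood lower in them. The share of all genes at the unadjusted threshold was 10.3% in the fit reported and was not counted in the others. With 1 library left out the number of members that fell ran from 0 to 12. In none of these fits did a member rise. The number of calls in the 5 lists of other mitochondrial genes, 2 lower, was 4 with the replicate block, 4 with the Wald test, 0 with length offsets and 0 to 4 with 1 library left out. Medians moved by less than the spread between libraries: from -0.17 to -0.12 over processing choices and from -0.18 to -0.10 with 1 library left out for the large subunit, and from -0.13 to -0.08 in both cases for the small subunit. In these fits 71 to 73 of the 77 members were negative, except that the minimum of 5 CPM left 76 members, 72 of them negative. The replicate numbers share only a number: same-numbered libraries had deviations correlated by -0.10, 0.05 and -0.01, and only rhTR11B replicate 2 correlated best with its own number, so no pairing was used. The causes of these differences between settings were not tested. Counting error weighs most on MRPS28, with 115 to 138 counts per library and an SE of 0.16.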
